A study of Rattus norvegicus with 18 samples.

Results

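The late response of FRTL5 cells to thyroid-stimulating hormone (TSH) was taken as the difference between 3 FRTL5 arrays at 17 h of TSH and 3 FRTL5 arrays without hormone (basal), which are 6 of the 18 arrays of the series. It was read over 8740 of the 8799 probe sets on the array, since the 59 control probe sets were left out. FRTL5 is an established rat thyrocyte line that keeps thyroid differentiation in culture. The 17 h cells had received bovine TSH at 0.1 U/L for 17 h and the basal cells had received none. Cells of both groups had first spent 5 days in the TSH-free medium called 5H and, before stimulation, 12 h without serum, so TSH withdrawal and serum starvation were common to them. A further FRTL5 group had 30 min of the same dose. FRT/TSHR is a de-differentiated rat thyroid line whose name states the TSH receptor (how it was made is not given in the sources used here). It had groups at 17 h and 30 min of TSH at 1 U/L and a basal group, in Coon's modified F12 medium and with the same 12 h without serum. Each of the 6 groups had 3 biological replicates. When the basal cells were collected is not given in the sources used here, and no group is labelled as untreated at 17 h, so TSH and time in culture cannot be told apart.

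TSH binds a receptor on thyrocytes that couples mainly to Gs and raises cyclic AMP. In the thyroid this pathway drives iodide uptake and hormone synthesis and, together with insulin or IGF1, cell growth and division. Iodide enters through the sodium iodide symporter, is bound to thyroglobulin at the apical surface and is released as hormone after thyroglobulin is digested in lysosomes. FRTL5 cells are known to depend on TSH for both iodide uptake and division.

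All values are log2 signals from RMA, which brings arrays to a common distribution and reduces the probes of a probe set to 1 value. Array medians were 5.47 to 5.59 over the 18 arrays, and the median SD of a probe set was 0.158 among the 17 h arrays and 0.173 among the basal arrays. The FRTL5 arrays numbered 1 stood apart, at both times and at basal: their beta-actin signal was 1.13 to 1.22 higher at the 3′ than at the 5′ end of the transcript, against at most 0.28 on each other array. As for the labelled cell type, all 6 thyrocyte markers measured (Tg, Tshr, Pax8, Nkx2-1, Foxe1 and Slc5a5) averaged above the median of the 17 h arrays, which does not by itself show detection. The log2 of their mean linear signal was 8.48 to 9.60 on the 17 h arrays and 8.76 to 9.76 on the basal arrays. On the same scale the level was 5.07 to 5.22 on the 17 h arrays and 4.92 to 5.07 on the basal arrays for 9 C cell and neuroendocrine genes. It was 5.20 to 5.31 and 5.20 to 5.24 for 11 fibroblast and smooth muscle genes, 5.51 to 5.56 and 5.53 to 5.76 for 4 endothelial genes, and 5.35 to 5.49 and 5.43 to 5.53 for 8 leukocyte genes, again at 17 h and at basal. None of these 32 genes passed the test, and 3, 2, 2 and 3 of the 4 lists' genes averaged above the array median. Detection above background was not measured, so signals near or below the array median are relative levels only.

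At 17 h of TSH, 143 probe sets were higher and 168 lower than in basal cells at an adjusted p under 0.05, which is 3.56% of the 8740 tested with limma. The typical change was moderate, with a median fold of 1.89 (1.32 to 6.14) among those that rose and 1.65 (1.28 to 3.05) among those that fell. Of the 311, 60 rose and 31 fell by at least 2-fold. Groups did not overlap for 310 of the 311, against 15.4% of all probe sets. Passing and non-overlap were read from the same values, so the 1 makes the other likely and is no separate support. With 1 probe set per gene (the one with the highest mean), 88 genes rose (1.86% of 4736) and 107 fell (2.26%). Of all 4736 genes 52.4% had a higher mean at 17 h. These shares are the background for the main counts of each gene list below. With the replicate number as a block, 867 probe sets passed, among them all 311, and the shares of genes that rose and fell were then 4.29% and 6.57%. The count depended on single arrays: it was 152 without the 17 h array numbered 2, 159 without the 17 h array numbered 3 and 190 without the basal array numbered 2. Without all FRTL5 arrays numbered 1 it was 239, of which 142 rose and 97 fell.

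The sodium iodide symporter gene and a potassium channel gene were among the clearest increases. Slc5a5, the symporter that concentrates iodide in the cell, measured 9.14, 9.69 and 9.91 at 17 h of TSH, against 6.73, 7.15 and 7.00 in basal cells. All 17 h arrays lay well above all basal arrays, and the increase was the largest among the genes that passed, at 6.14-fold (log2 2.62 ± 0.18 SE, adjusted p = 1.86e-06). Kcnj15, which encodes the inward rectifier potassium channel Kir4.2, measured 9.25, 9.05 and 9.15 at 17 h and 7.60, 7.82 and 7.20 in basal cells. Again the groups were far apart, with little spread at 17 h, and the level was 3.05-fold higher (adjusted p = 8.21e-05). Kcnk1, a background potassium channel, was 1.62-fold higher (log2 0.70 ± 0.12 SE, adjusted p = 0.00432), with 6.66, 6.87 and 6.88 at 17 h and 6.19, 6.13 and 5.99 in basal cells. These 2 were the channels that rose among 11 measured genes for potassium channels and ion pumps, whose median difference was 0.11. The lowest difference in the list was -0.89. None of the 11 was called lower, but with the replicate number as a block 1 was, against 6.57% of all genes. The calls of Slc5a5, Kcnj15 and Kcnk1 held in each of 6 fits that left out 1 of the FRTL5 arrays. In these bulk cultures a change in the number of expressing cells and a change in RNA per cell cannot be told apart.

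**Figure D1:**
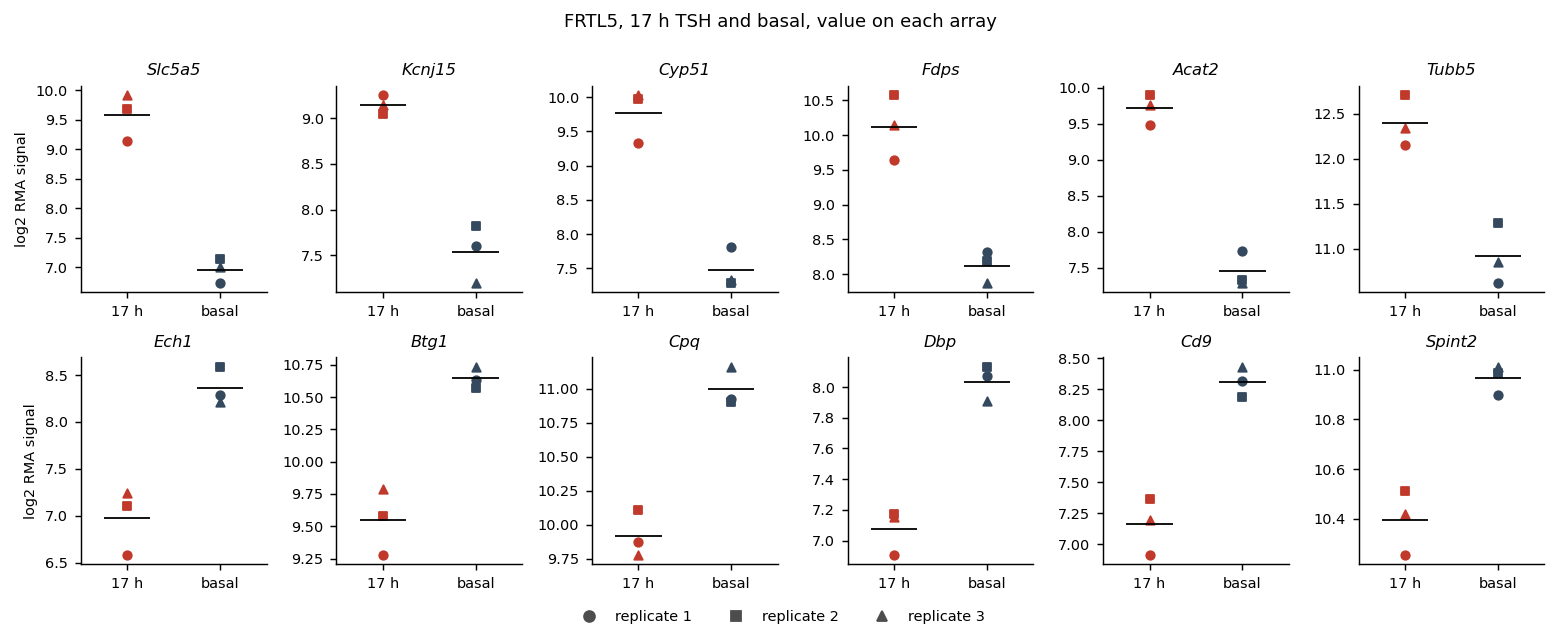
Log2 RMA signal (vertical axes, a scale for each gene) on each of the 3 arrays at 17 h of TSH and the 3 basal arrays of FRTL5 cells for 12 genes. Symbols mark the replicate number and bars the group means. In the upper row every 17 h value lies above every basal value, and in the lower row below, for Slc5a5 with group means of 9.58 and 6.96.

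The Slc5a5 promoter is shown because this gene changed most. It is the RefSeq window of GRCr8 from 250 bases before to 50 bases after the start of the gene, chr16:18580455-18580754 on the plus strand. Capitals mark the match to the E2F-type motif TTTCGCGC, here on the opposite strand, at bases -29 to -22 from the start.
Slc5a5: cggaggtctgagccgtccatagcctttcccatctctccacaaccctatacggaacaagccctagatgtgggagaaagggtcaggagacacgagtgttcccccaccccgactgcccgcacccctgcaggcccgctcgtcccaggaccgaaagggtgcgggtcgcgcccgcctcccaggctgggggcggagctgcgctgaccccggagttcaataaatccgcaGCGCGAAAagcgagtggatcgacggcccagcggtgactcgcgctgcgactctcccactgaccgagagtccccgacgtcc
This motif was found, on either strand, in 0.342% of the 27457 rat promoters of the table and in 0.541% of those of measured genes. It was found in 4 of the 79 promoters read for genes that rose (5.06%), Slc5a5 among them. The window held no match to the cAMP response elements TGACGTCA and TGACGTNA, which says nothing of the region outside it.

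Other thyroid genes did not pass as higher. Thyroglobulin, the protein on which hormone is made, measured 9.76, 10.83 and 11.12 at 17 h and 10.40, 11.64 and 11.58 in basal cells at its brightest probe set (Tg, log2 -0.64 ± 0.37 SE, adjusted p = 0.555). The groups overlapped, with the arrays numbered 1 low in both, yet the value was lower at 17 h in each of the 3 pairs of equal number. With the number as a block it passed as lower (adjusted p = 0.00593). The 3 other Tg probe sets were not called, at 1.03, -0.07 and -0.47.

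Pax8, a transcription factor needed for thyroid differentiation, measured 8.37, 9.23 and 9.38 at 17 h and 9.44, 9.99 and 9.94 in basal cells. Every 17 h array was below every basal array, but the difference of -0.80 ± 0.23 (SE) missed the threshold (adjusted p = 0.0724) unless the replicate number was a block (adjusted p = 0.00182). It also passed without the 17 h array numbered 3 (adjusted p = 0.0461), without the basal array numbered 1 (0.0397) and without all FRTL5 arrays numbered 1 (0.0360). Nkx2-1 and Foxe1, the other main thyroid transcription factors, differed by -0.05 ± 0.50 and -0.04 ± 0.34 (adjusted p = 0.984 for each), and neither sign was stable when 1 array was left out. For Nkx2-1 a second probe set was called lower, at -0.61 ± 0.14 (SE, adjusted p = 0.0236). The TSH receptor gene Tshr differed by 0.16 ± 0.15 at its chosen probe set (adjusted p = 0.801), while 1 of its 3 other probe sets was called lower at -0.59 ± 0.14 (adjusted p = 0.0248). Of 7 measured genes for iodide transport and hormone synthesis only Slc5a5 passed, and of 5 thyroid transcription factors none did.

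**Figure D2:**
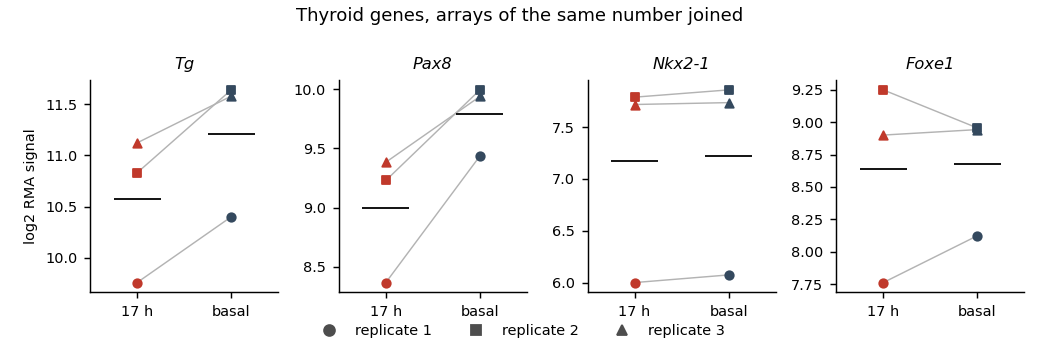
Log2 RMA signal of Tg, Pax8, Nkx2-1 and Foxe1 on the FRTL5 arrays at 17 h of TSH (left) and at basal (right), with grey lines between arrays of the same number and bars at the group means. The arrays numbered 1 (circles) lie below the others in both groups, and Tg and Pax8 are lower at 17 h in each pair.

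Enzymes of cholesterol synthesis rose at many steps of the route. All 14 measured enzymes from acetyl-CoA to cholesterol had higher means at 17 h of TSH, and 8 of them rose. In the mevalonate part, which builds farnesyl diphosphate, 4 of 5 enzymes rose and the median difference was 1.54, against 0.01 for all genes. Acat2, the thiolase of the first step, measured 9.49, 9.89 and 9.76 at 17 h and 7.73, 7.33 and 7.29 in basal cells. The groups were more than a log2 unit apart, a 4.8-fold increase (log2 2.26 ± 0.29 SE, adjusted p = 0.000494). Fdps, which makes farnesyl diphosphate, measured 9.64, 10.57 and 10.14 at 17 h and 8.31, 8.18 and 7.87 in basal cells. It did not overlap either and was 3.98-fold higher (adjusted p = 7.53e-05). Other Fdps probe sets gave 1.82, which was called, and 1.48, which was not (adjusted p = 0.239).

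Idi1, the isopentenyl diphosphate isomerase, rose 2.9-fold (log2 1.54 ± 0.28 SE, adjusted p = 0.00581), with 7.25, 6.45 and 6.80 at 17 h and 5.64, 5.22 and 5.03 in basal cells. A dim second probe set for Idi1 gave 0.25 and was not called. Mvd, the mevalonate diphosphate decarboxylase, rose 2.53-fold (adjusted p = 0.00882), with 7.21, 8.17 and 7.99 at 17 h and 6.30, 6.56 and 6.48 in basal cells. Its groups did not overlap, and its adjusted p was 0.0507 without the 17 h array numbered 2. Mvk, mevalonate kinase, was the enzyme of this part that did not pass (0.26 ± 0.26 SE, adjusted p = 0.813).

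From squalene onwards 4 of 9 enzymes rose, with a median difference of 0.82. With the replicate number as a block 8 of 9 passed. When 1 array was left out the count was 3 to 5, and without all arrays numbered 1 it was 6. Cyp51, the lanosterol demethylase, measured 9.33, 9.97 and 10.03 at 17 h and 7.81, 7.28 and 7.33 in basal cells. It was 4.94-fold higher (log2 2.30 ± 0.26 SE, adjusted p = 0.000266), and of its 4 other probe sets 3 were also called, at 1.52 to 1.98, and 1 was not, at 1.05. Hsd17b7, a reductase of the later sterol steps, rose 2.35-fold (adjusted p = 0.000818) at a dim level of 5.26, 5.64 and 5.54 at 17 h against 4.36, 4.10 and 4.29 in basal cells.

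Dhcr7, the reductase that forms cholesterol in the last step, had the level 7.57, 8.56 and 8.35 at 17 h and 7.25, 7.05 and 6.16 in basal cells. The 2.53-fold rise (adjusted p = 0.0143) lost its call in 3 of the 6 fits without 1 array, with an adjusted p of 0.0736 without the 17 h array numbered 2, although a second probe set gave 1.56 (adjusted p = 0.00773). Fdft1, squalene synthase, rose 1.77-fold (log2 0.82 ± 0.16 SE, adjusted p = 0.00759), and 1 of its 3 other probe sets was called as well. The enzymes that did not pass were Msmo1 at 1.08, Lss at 0.82, Nsdhl at 0.75, Sqle at 0.64 and Ebp at 0.63, with adjusted p of 0.0631 to 0.19. Of these all but Ebp passed with the block.

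**Figure D3:**
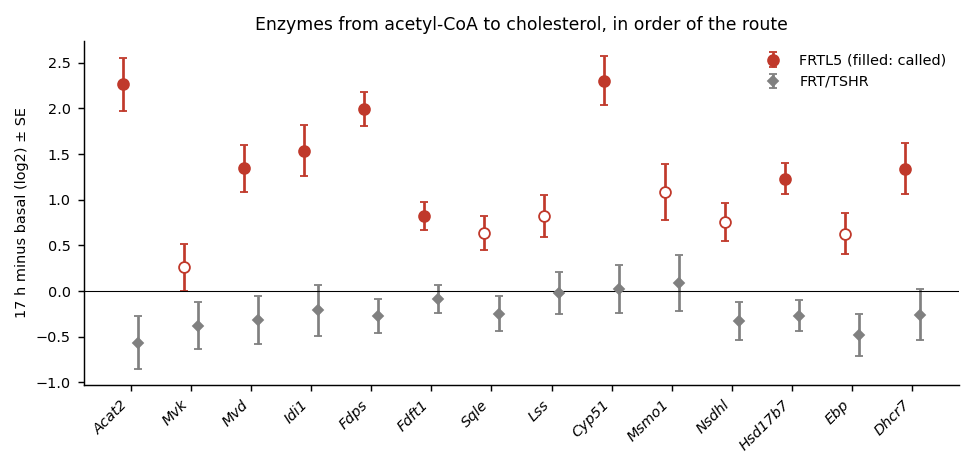
Difference between 17 h of TSH and basal (log2, with limma SE) for 14 enzymes in the order of the route from acetyl-CoA to cholesterol, in FRTL5 cells (circles, filled where called) and in FRT/TSHR cells (diamonds). All 14 FRTL5 values lie above 0, and 12 of the 14 FRT/TSHR values lie below it.

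The Fdps promoter is shown because Fdps is the enzyme of the mevalonate part with the smallest adjusted p. It spans chr2:176804767-176805066 of GRCr8 on the minus strand, and capitals mark CCAAT or its reverse complement, at bases -130 to -126 and -85 to -81 from the start.
Fdps: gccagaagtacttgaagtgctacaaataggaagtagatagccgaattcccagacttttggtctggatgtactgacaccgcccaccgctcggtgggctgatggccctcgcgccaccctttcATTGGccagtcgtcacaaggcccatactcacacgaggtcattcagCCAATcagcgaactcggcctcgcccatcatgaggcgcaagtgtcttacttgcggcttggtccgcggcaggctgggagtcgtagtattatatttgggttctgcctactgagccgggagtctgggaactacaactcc
CCAAT on either strand was found in 9 of the 12 cholesterol synthesis promoters that the table held (75%), against 37.7% of all promoters, 49.4% of the 79 read for genes that rose and 37.6% of the 85 read for genes that fell. The sterol response element TCACNCCAC matched in 0 of these 12 windows and in 1.13% of all. The match is a description of these letters, and windows of 300 bases leave out more distant sequence.

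Of the sterol regulators and uptake genes 1 of 6 measured rose, and of the genes for fatty acid synthesis and NADPH supply 2 of 11. The share over all genes was 1.86%. Insig1, which holds the sterol-sensing SREBP complex in the endoplasmic reticulum, rose 1.75-fold (adjusted p = 0.0212), with 9.11, 9.77 and 9.77 at 17 h and 9.01, 8.46 and 8.76 in basal cells. The groups were close for the arrays numbered 1, and the call failed in 4 of the 6 fits without 1 array, with an adjusted p of 0.109 without the 17 h array numbered 2. Its second probe set gave 0.47 and was not called. All 11 fatty acid synthesis and NADPH genes had higher means, with a median of 0.53, and the 2 called became 4 with the block, 5 with array weights, 5 without all arrays numbered 1 and 1 to 3 without 1 array. Me1, the cytosolic malic enzyme that makes NADPH, measured 7.04, 7.60 and 7.60 at 17 h and 6.22, 5.82 and 5.69 in basal cells. The groups were clearly separate and the level was 2.84-fold higher (adjusted p = 0.00919), and of 4 other probe sets 2 were called and 2 were not, at 1.19 and 0.08. Acly, which makes cytosolic acetyl-CoA from citrate, measured 11.09, 10.82 and 10.86 at 17 h and 10.48, 9.66 and 9.39 in basal cells, 2.12-fold higher (adjusted p = 0.0296), and lost its call in 5 of the 6 fits without 1 array (adjusted p = 0.13 without the basal array numbered 3). Other Acly probe sets gave 1.20, which was called (adjusted p = 0.0333), and 1.01, which was not (adjusted p = 0.315). Fasn, fatty acid synthase, had a difference of 1.15 ± 0.49 (SE) and did not pass without the block (adjusted p = 0.323, and 0.00804 with it).

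Fatty acid oxidation genes showed no common shift, with a median of 0.02 over 28 measured and 2 that fell, against 2.26% of all genes. Ech1, a dienoyl-CoA isomerase of peroxisomal and mitochondrial oxidation, measured 6.59, 7.11 and 7.24 at 17 h and 8.28, 8.59 and 8.21 in basal cells. All 17 h arrays lay below all basal arrays, and the level was 2.6-fold lower (log2 -1.38 ± 0.19 SE, adjusted p = 0.000853). Hsd17b4, the peroxisomal multifunctional enzyme, was 1.66-fold lower (log2 -0.73 ± 0.15 SE, adjusted p = 0.0116), with 7.32, 7.71 and 7.57 at 17 h and 8.30, 8.18 and 8.33 in basal cells. Both calls held in each fit that left out 1 array, but that of Hsd17b4 did not hold without all arrays numbered 1 (adjusted p = 0.102). Other Hsd17b4 probe sets gave -0.68, which was called lower, and -0.50 and -0.19, which were not called.

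DNA replication genes were higher almost throughout. Of 20 measured, 9 passed as higher, none as lower, and 19 had higher means, with a median of 0.78. These 19 were higher in each of the 3 pairs of equal number. With the block 16 passed. In fits without 1 array 3 to 6 passed, fewest without the 17 h array numbered 2 (3) or numbered 3 (4), while the list median stayed between 0.68 and 0.92. Tyms, thymidylate synthase, measured 5.39, 5.40 and 5.26 at 17 h and 4.60, 4.22 and 4.41 in basal cells. The groups were separate at a dim level, and the rise was 1.92-fold (adjusted p = 0.00181). Prim1, the catalytic subunit of primase, measured 7.73, 7.77 and 7.72 at 17 h and 6.64, 6.67 and 6.69 in basal cells. Both groups were tight, and the rise was 2.1-fold (log2 1.07 ± 0.19 SE, adjusted p = 0.00539). Dnmt1, the maintenance DNA methyltransferase, rose 2.38-fold (adjusted p = 0.00649), with 7.51, 8.29 and 8.01 at 17 h and 6.70, 7.09 and 6.27 in basal cells, though a dimmer second probe set gave 0.54 and was not called.

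Pcna, the sliding clamp of DNA polymerase, measured 10.33, 9.71 and 9.78 at 17 h and 9.10, 8.21 and 7.36 in basal cells. The basal arrays spread over more than a log2 unit, and the 3.28-fold rise had a wide error (log2 1.71 ± 0.41 SE, adjusted p = 0.0274). The call failed in 5 of the 6 fits that left out 1 array, with an adjusted p of 0.121 without the basal array numbered 3. Its second probe set gave 1.87 ± 0.33 (SE, adjusted p = 0.00452). Mcm5, a subunit of the replicative helicase, measured 7.58, 6.92 and 6.85 at 17 h and 5.52, 5.58 and 5.55 in basal cells. The basal arrays were nearly equal and the groups far apart (2.96-fold, adjusted p = 0.0309), yet the call failed in 6 of those 6 fits (highest adjusted p 0.117, without the 17 h array numbered 1). Mcm6 and Mcm7, subunits of the same helicase, had differences of 1.82 and 1.01 and did not pass without the block (adjusted p = 0.0748 and 0.0898, and 0.00434 and 0.00633 with it). The other genes of the list that rose were Prim2, Pold1, Pola1 and Rfc4, for the primase, DNA polymerases delta and alpha and the clamp loader. The 1 gene with a lower mean was Rfc1 (-0.17, adjusted p = 0.739).

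The Mcm5 and Pcna promoters are shown as examples from this list, Mcm5 because its window held all 3 E2F-type motifs searched, which was known when it was chosen. The Mcm5 window spans chr19:13488563-13488862 and the Pcna window chr3:139955771-139956070 of GRCr8, on the plus and the minus strand. Capitals mark matches on either strand.
Mcm5: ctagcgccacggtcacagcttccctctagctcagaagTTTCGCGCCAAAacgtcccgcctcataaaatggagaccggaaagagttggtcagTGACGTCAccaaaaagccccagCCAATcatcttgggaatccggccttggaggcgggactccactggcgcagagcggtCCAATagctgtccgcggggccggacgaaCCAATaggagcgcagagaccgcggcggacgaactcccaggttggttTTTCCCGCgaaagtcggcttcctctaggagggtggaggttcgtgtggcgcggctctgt
Pcna: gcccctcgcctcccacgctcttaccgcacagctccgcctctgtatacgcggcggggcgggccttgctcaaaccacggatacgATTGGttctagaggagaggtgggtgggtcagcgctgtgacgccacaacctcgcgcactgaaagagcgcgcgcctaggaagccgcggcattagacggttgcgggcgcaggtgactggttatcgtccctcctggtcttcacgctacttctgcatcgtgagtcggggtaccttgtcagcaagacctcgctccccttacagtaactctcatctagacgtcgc
In Mcm5 the E2F-type motif TTTCCCGC lies at bases -8 to -1 from the start, and TTTCGCGC at -213 to -206 overlaps the reverse complement of TTTGGCGC at -209 to -202. Mcm5 also holds the cAMP response element TGACGTCA at -159 to -152 and CCAAT at -137, -82 and -54, while Pcna holds the reverse complement of CCAAT at -168 alone. Each of the 3 E2F-type motifs matched in 4 of the 19 DNA replication promoters in the table (21.1%), against 1.03% (TTTCCCGC), 0.521% (TTTGGCGC) and 0.342% (TTTCGCGC) of all promoters. Among promoters of measured genes the shares were 1.5%, 0.748% and 0.541%. TGACGTCA matched in 1 of the 19 DNA replication promoters, in 1.91% of all and in 2.42% of those of measured genes.

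Mitotic genes were also mostly higher, with 15 of 16 means above basal and a median of 0.31, and 3 rose (5 with the block, 1 to 3 in the fits without 1 array). Cdk1, the kinase of mitotic entry, measured 7.02, 6.92 and 6.75 at 17 h and 5.81, 5.45 and 5.66 in basal cells. The groups did not overlap and the rise was 2.39-fold (adjusted p = 0.0121, and 0.0536 without the basal array numbered 2). Top2a, the topoisomerase that untangles chromosomes, rose 2.11-fold (log2 1.08 ± 0.23 SE, adjusted p = 0.0155), with 9.09, 9.22 and 9.18 at 17 h and 7.94, 8.24 and 8.07 in basal cells. Other Top2a probe sets gave 1.02, which was called, and 1.16, which was not (adjusted p = 0.076). Plk4, the kinase of centriole duplication, rose 2.7-fold (adjusted p = 0.0406), with 6.47, 5.90 and 5.72 at 17 h and 5.18, 4.69 and 3.92 in basal cells. Without 1 array these calls were lost in 3 of 6 fits for Top2a and 5 of 6 for Plk4 (highest adjusted p 0.0603 and 0.172). Other mitotic genes did not pass, such as the cyclin Ccnb1 at 0.14, the activator of mitotic exit Cdc20 at 0.19 and the kinase Plk1 at 0.02 (adjusted p = 0.929, 0.906 and 0.975). None of 16 measured G1 cyclins, CDKs and inhibitors passed, with a median of 0.08. They ranged from 0.49 for Cdk4 (adjusted p = 0.47) to -0.47 for the inhibitor Cdkn1b (adjusted p = 0.364), and Ccne1 passed with the block (adjusted p = 0.0318, and 0.279 without it).

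Tubb5, a beta-tubulin, measured 12.15, 12.70 and 12.34 at 17 h and 10.62, 11.29 and 10.86 in basal cells. It was among the brightest genes and was 2.79-fold higher (log2 1.48 ± 0.24 SE, adjusted p = 0.0029), though tubulin transcripts share sequence and probe sets may read several. Tfrc, the transferrin receptor that imports iron, measured 6.96, 6.24 and 6.05 at 17 h and 5.20, 4.77 and 4.56 in basal cells, 2.97-fold higher (adjusted p = 0.00766). Both differences exceeded the spread of their arrays and held in each fit without 1 array. Of 16 genes for nucleotide and one-carbon synthesis 2 rose (1.86% of all genes did), and 1 in all but 1 of the fits without 1 array. Mthfd1, the cytosolic folate enzyme, measured 8.44, 8.09 and 7.85 at 17 h and 7.05, 7.15 and 7.02 in basal cells, 2.07-fold higher (adjusted p = 0.00181), and held in each fit. Nme1, a nucleoside diphosphate kinase, rose 1.52-fold (adjusted p = 0.0266) and lost its call in 5 of 6 fits (highest adjusted p 0.117, without the basal array numbered 3).

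**Figure D4:**
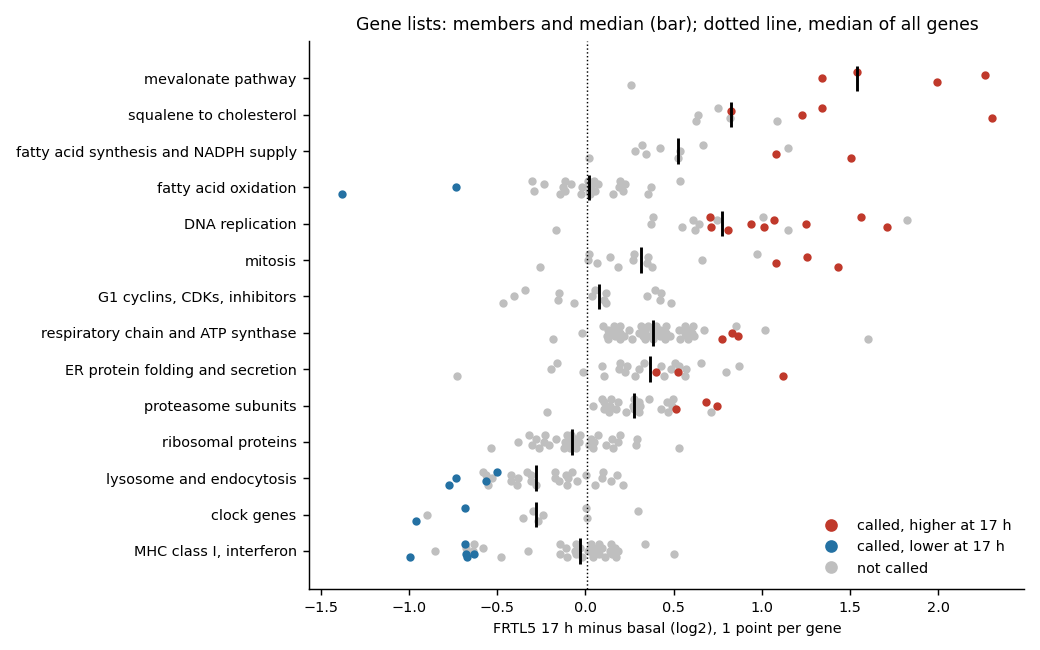
Difference between 17 h of TSH and basal in FRTL5 cells (log2, horizontal axis) for every measured member of 14 gene lists, 1 point per gene. Bars mark list medians (1.54 for the mevalonate list, -0.28 for lysosome and endocytosis) and the dotted line the median of all 4736 genes (0.01). Points are spread vertically only to be visible.

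Of 26 amino acid supply genes 4 rose and 2 fell, against 1.86% and 2.26% of all genes. In fits without 1 array 2 or 3 rose, 2 without the 17 h array numbered 2, and 1 or 2 fell. With the block 7 rose and 3 fell, against 4.29% and 6.57% of all genes. Phgdh, which starts serine synthesis, rose 1.95-fold (adjusted p = 0.00404), with 9.47, 9.62 and 9.79 at 17 h and 8.33, 8.97 and 8.68 in basal cells. Slc7a1, an arginine and lysine transporter, rose 1.94-fold (adjusted p = 0.00432), with 6.70, 6.29 and 6.36 at 17 h and 5.57, 5.41 and 5.50 in basal cells. The groups of both were clear of each other. Gls2, a glutaminase, was 1.59-fold lower (adjusted p = 0.00534), with 4.86, 5.26 and 4.75 at 17 h and 5.60, 5.66 and 5.62 in basal cells. These 3 calls held in each fit without 1 array. Slc7a5 and Got2 also rose, and Cbs also fell. Other Slc7a1 probe sets gave 0.83, which was called, and 0.24, which was not. Those of Phgdh gave 1.13, which was called, and 1.09, which was not. Other Got2 probe sets gave 0.96 and 0.02 and were not called.

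Genes of protein production and energy metabolism mostly had small differences. Rrbp1, a ribosome-binding protein of the endoplasmic reticulum, measured 8.08, 7.31 and 7.31 at 17 h and 6.31, 6.16 and 5.81 in basal cells. The groups were well apart and the rise was 2.78-fold (adjusted p = 0.000853). Of 26 genes for folding and secretion in the endoplasmic reticulum 22 had higher means (median 0.36) and 3 rose, Fkbp11, Pdia6 and Dad1. Other Dad1 probe sets gave 0.22 and 0.23 and were not called. With the block 11 of the 26 genes rose, and in fits without 1 array 0 to 6 did, with 0 in those without the 17 h arrays numbered 2 or 3. Hspa5 (BiP), Hsp90b1 and Canx, the main chaperones there, stood at 0.87, 0.80 and 0.65 and were not called (adjusted p = 0.241, 0.684 and 0.441, and 0.0361, 0.00307 and 0.00473 with the block).

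Of 51 measured genes of the respiratory chain and ATP synthase 49 had higher means and the median was 0.38. The 3 that rose were the complex I genes Ndufv2 and Ndufs1 and the cytochrome oxidase gene Cox5b. A second Cox5b probe set gave 0.42 and was not called. Ndufv2 measured 9.47, 9.69 and 9.49 at 17 h and 8.85, 9.04 and 8.16 in basal cells, 1.82-fold higher (adjusted p = 0.0141, and 0.0659 without the 17 h array numbered 2). With the block 16 of the 51 rose, and in fits without 1 array 0 to 4 did, with 0 without the 17 h array numbered 2. The list median was 0.33, 0.25 and 0.60 within the pairs numbered 1, 2 and 3, and 0.25 to 0.48 without 1 array. Proteasome subunits had a similar form, with 26 of 27 means higher, a median of 0.28 and 3 that rose (Psma7, Psmb3 and Psmb5, 1 to 3 without 1 array, 5 with the block). A second Psma7 probe set gave 0.36 and was not called, while the other probe sets of Psmb3 and Psmb5 were called higher.

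None of 36 ribosomal protein genes passed (1 with the block) and 13 had higher means, with a median of -0.07. The median changed sign between pairs, at 0.24 within the pair numbered 1, with 33 of 36 higher, -0.25 within the pair numbered 2 and -0.15 within the pair numbered 3. Of 10 ribosome biogenesis genes none passed (2 with the block), although 9 had higher means. Of 29 translation factors and tRNA synthetases, Vars1 and Tars1, the valine and threonine tRNA synthetases, rose by 1.00 and 0.87 (log2, adjusted p = 0.0236 and 0.0333), each losing its call in 4 of 6 fits without 1 array (highest adjusted p 0.122 and 0.109). Calls were also made for glycolysis and lactate transport (2 of 32 up, median 0.07) and the TCA cycle (2 of 12 up, median 0.12). Of cytosolic and mitochondrial chaperones 3 of 24 rose (6 with the block, median 0.21). The share over all genes was 1.86%, and 4.29% with the block. Each of these 3 counts without the block was 0 in at least 1 fit without 1 array.

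Of the genes that fell, 8 are given first because each kept its call in every fit without 1 array. Btg1, known to restrain proliferation, measured 9.28, 9.58 and 9.79 at 17 h and 10.63, 10.57 and 10.73 in basal cells. The groups were separate and the level was 2.14-fold lower (log2 -1.10 ± 0.13 SE, adjusted p = 0.000375). Cpq, a secreted carboxypeptidase, measured 9.87, 10.11 and 9.78 at 17 h and 10.92, 10.90 and 11.16 in basal cells, 2.11-fold lower (adjusted p = 0.00017), with no overlap. Cd9, a tetraspanin of the cell surface, measured 6.92, 7.37 and 7.20 at 17 h and 8.32, 8.18 and 8.43 in basal cells, 2.22-fold lower (adjusted p = 0.0024). A second Cd9 probe set gave -0.56 and was not called.

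Serpinb9, an inhibitor of granzyme B, was 2.22-fold lower (adjusted p = 0.00128) with hardly any spread, at 6.55, 6.55 and 6.60 at 17 h and 7.69, 7.69 and 7.77 in basal cells. Dock9, an activator of the GTPase Cdc42, was 2.25-fold lower (adjusted p = 0.00347), with 8.81, 8.69 and 8.95 at 17 h and 10.17, 10.00 and 9.79 in basal cells. Srsf5, a splicing factor, was 2.09-fold lower (adjusted p = 0.00524), with 7.67, 7.66 and 7.77 at 17 h and 8.71, 8.59 and 8.98 in basal cells, though a second probe set gave -0.09 and was not called. The 3 genes were lower on each 17 h array than on any basal array. Spint2, a membrane inhibitor of serine proteases, measured 10.25, 10.51 and 10.42 at 17 h and 10.90, 10.99 and 11.01 in basal cells, 1.49-fold lower (adjusted p = 0.00206). Cst3, the secreted protease inhibitor cystatin C, measured 10.43, 10.10 and 10.45 at 17 h and 11.27, 11.08 and 11.15 in basal cells, 1.79-fold lower (adjusted p = 0.00726). With the 6 arrays compared alone Spint2 was not called (adjusted p = 0.0782).

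Other large decreases were less stable. Selenow, a small selenoprotein, measured 5.47, 6.52 and 6.19 at 17 h and 6.92, 7.83 and 7.72 in basal cells, with the arrays numbered 1 lowest in each group. It was 2.7-fold lower (adjusted p = 0.0126, 0.062 without the basal array numbered 2, and 1.12e-05 with the block). Xdh, the xanthine dehydrogenase that makes uric acid, was 2.52-fold lower (adjusted p = 0.00967, 0.0504 without the 17 h array numbered 2). Pros1, anticoagulant protein S, was 2.18-fold lower (adjusted p = 0.00968, 0.0504 without the 17 h array numbered 2), and Tcp11l2 2.59-fold lower (adjusted p = 0.012, 0.0571 without the 17 h array numbered 3). Pnrc1, a nuclear receptor coactivator, Kank2, an ankyrin repeat protein, Papss2, which makes the sulfate donor PAPS, and the transcription factor Klf9 fell 2.11- to 2.32-fold and lost their calls in 3 to 5 of the 6 fits without 1 array. A second Pnrc1 probe set gave 0.03 (adjusted p = 0.967), and a second Klf9 probe set -0.79 (adjusted p = 0.591).

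Lysosome and endocytosis genes were lower on balance. Of 31 measured 24 had lower means, with a median of -0.28, and 4 fell: Ppt1, the thioesterase that cleaves palmitate from proteins, the cathepsins Ctsb and Ctsh, and the membrane protein Lamp1. Ctsb, which can digest thyroglobulin, measured 10.11, 9.94 and 10.21 at 17 h and 10.95, 10.94 and 10.57 in basal cells, 1.66-fold lower (adjusted p = 0.0278). Ppt1 measured 6.84, 6.68 and 6.93 at 17 h and 7.57, 7.60 and 7.60 in basal cells, 1.71-fold lower (adjusted p = 0.0125). Neither pair of groups overlapped. The 3 other Lamp1 probe sets were at -0.07 to -0.18 and were not called. With the block 7 fell, against 6.57% of all genes. In fits without 1 array 0 to 4 did, with 0 without the 17 h array numbered 2, and without all arrays numbered 1 there was 1 and the median was -0.18.

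Among clock genes, 2 of 10 fell (2.26% of all genes did), 1 of them in each fit. Dbp, a transcription factor driven by the circadian clock, measured 6.91, 7.17 and 7.15 at 17 h and 8.07, 8.13 and 7.91 in basal cells. The groups did not overlap and the level was 1.94-fold lower (log2 -0.96 ± 0.12 SE, adjusted p = 0.000454), and a second probe set gave -0.82 (adjusted p = 0.0135). Per2, a repressor within the clock, was 1.6-fold lower at a dim level (adjusted p = 0.0189, lost in 4 of 6 fits without 1 array). Nr1d2, which encodes a nuclear receptor that represses Bmal1, stood at -0.90 (adjusted p = 0.0725, 0.0107 with the block), and Bmal1 itself at 0.30 (adjusted p = 0.327). Of 10 clock genes 7 had lower means, as did 2252 of all 4736 genes. The hours of sampling are not given in the sources used here, so time of day and TSH cannot be told apart.

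A few genes of antigen presentation fell within a list that did not move as a whole. Of 39 genes for MHC class I, antigen processing and the interferon response 5 fell and none rose, against 2.26% and 1.86% of all genes. The list median was -0.03. RT1-CE12, RT1-A and RT1-CE16, rat class I genes, were 1.6-, 1.61- and 1.55-fold lower (adjusted p = 0.00218, 0.0046 and 0.00563). RT1-CE12 measured 10.20, 10.62 and 10.50 at 17 h and 11.08, 11.12 and 11.15 in basal cells, with every 17 h array below every basal one. Class I genes form a family of near-identical members, so which of them changed is uncertain. B2m, the light chain of class I molecules, also fell (-0.99 ± 0.23 SE, adjusted p = 0.0218), as did Irf7, an interferon regulatory factor (-0.68 ± 0.12 SE, adjusted p = 0.00515). A second Irf7 probe set gave -0.50 (adjusted p = 0.275) and was not called. The count of the list was 4 or 5 in fits without 1 array, 9 with the block (6.57% of all genes) and 1 without all arrays numbered 1.

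The remaining lists had few calls, against shares of 1.86% up and 2.26% down over all genes. Among 53 redox genes 2 rose and 3 fell: Gpx2, an epithelial glutathione peroxidase, rose 2.22-fold (adjusted p = 0.00232), with 8.67, 8.72 and 8.80 at 17 h and 7.81, 7.68 and 7.24 in basal cells. Gclm, the modifier subunit of glutathione synthesis, rose 1.53-fold (adjusted p = 0.0095), and Gsta4, a glutathione transferase, fell 1.69-fold (adjusted p = 0.0116). Other Gclm probe sets gave 0.10 and 0.43 and were not called, while a second Gsta4 probe set was called lower at -0.98. Of 74 genes for extracellular matrix, integrins and proteases 4 fell and none rose (2 to 4 without 1 array, 10 with the block). Of 39 cAMP and G protein signalling genes 1 fell, Grk5, a receptor kinase (-0.65, adjusted p = 0.0379, lost in 4 of 6 fits without 1 array). None of 18 insulin and IGF genes passed. Of 26 epithelial keratins, junction and surface genes 2 fell (Cd9 and Spint2), of 20 S100 proteins, annexins and galectins 2 fell (S100a1 and Anxa5), and of 30 cytoskeletal genes 2 rose (Tubb5 and Arpc1b) and 1 fell (Myl12b). Without 1 array the S100 and annexin count was 0 or 1, since Anxa5 lost its call in 6 of 6 fits and S100a1 in 2, and the cytoskeletal counts were 1 or 2 up and 0 or 1 down, with Myl12b lost in 5 of 6. Other S100a1 probe sets were called lower at -0.95, -0.95 and -0.53, and a second Anxa5 probe set at -1.03. Second probe sets for Arpc1b and Myl12b gave 0.59 and -0.34 and were not called. Of 37 growth factors and receptors Bmp4 and Ret fell, both with calls lost in at least 5 of 6 fits without 1 array. Other Ret probe sets were at 0.25 and -0.30 and were not called.

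The late changes were mostly absent at 30 min, where 21 probe sets passed (0.24%) and all were higher than basal. Both TSH times were set against the same basal arrays. Of the 143 probe sets higher at 17 h none had passed at 30 min, and of the 168 lower at 17 h 1 had, that of Id1, an inhibitor of basic helix-loop-helix factors. Id1 measured 8.63, 8.64 and 8.54 in basal cells, 9.45, 9.79 and 9.79 at 30 min and 7.77, 8.17 and 7.84 at 17 h. Every 30 min array lay above, and every 17 h array below, the basal arrays (1.07 ± 0.15 SE at 30 min, adjusted p = 0.00278, and -0.68 ± 0.15 SE at 17 h, adjusted p = 0.017). A second Id1 probe set was at -0.005 at 17 h (adjusted p = 0.995) and was not called. The 17 h call failed in 3 of 6 fits when 1 array was left out (adjusted p = 0.0709 without the 17 h array numbered 3). The 33 immediate early genes had a median of 0.68 at 30 min and -0.06 at 17 h. For Slc5a5 the 30 min difference was -0.09 ± 0.18 and for Cyp51 -0.40 ± 0.26 (SE, adjusted p = 0.9995 for each).

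The same genes were set against the FRT/TSHR line at 17 h, where 0 probe sets passed (0%, and 108 at an unadjusted p under 0.05, also 0 with the replicate block). The lines differed in TSH dose and medium too, and the 5 days in TSH-free medium are given for FRTL5 alone. These cannot be told apart from the line. The difference between the FRTL5 effect and the FRT/TSHR effect was itself tested and passed for 69 probe sets (0.789%), which had all passed in FRTL5: 42 of the 143 that rose and 27 of the 168 that fell. With the block 365 passed, and without 1 of the 12 arrays 33 to 83 did. It dropped most without the FRTL5 arrays at 17 h numbered 2 (34) and 3 (39) or basal numbered 3 (40), and without the FRT/TSHR arrays at 17 h numbered 1 (33) and 2 (35) or basal numbered 1 (42) and 3 (37). The difference was 2.58 ± 0.26 (log2, SE) for Slc5a5, 2.27 ± 0.27 for Fdps and 2.83 ± 0.41 for Acat2 (adjusted p = 0.000298, 0.00139 and 0.00402).

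In FRT/TSHR cells Slc5a5 measured 5.75, 5.95 and 5.68 at 17 h and 5.66, 5.93 and 5.69 at basal, near the array median and without a shift. Fdps measured 10.95, 11.26 and 11.24 at 17 h of TSH and 11.52, 11.47 and 11.28 at basal in FRT/TSHR cells, so it was above the FRTL5 17 h level in both. Of the 14 sterol enzymes 13 had a higher basal mean in FRT/TSHR than in FRTL5 cells, Sqle being the exception, and 2 of 14 were higher at 17 h than at basal in FRT/TSHR, both from squalene onwards (0 to 3 of those 9 without 1 FRT/TSHR array). Of the 20 DNA replication genes 0 had a higher mean at 17 h than at basal in FRT/TSHR (median -0.35), but this rested on 1 array. Without the FRT/TSHR 17 h array numbered 1, 7 of 20 were higher and the median was -0.06, and without each of the other FRT/TSHR arrays 0 to 2 were higher, with medians of -0.55 to -0.29. Mcm5, for example, measured 5.94, 6.98 and 7.51 at 17 h and 7.61, 7.32 and 7.51 at basal in FRT/TSHR cells, with the array numbered 1 lowest at 17 h. At the chosen probe sets the line difference was called for Tyms, Prim1 and Dnmt1 of that list, and for Cdk1 and Top2a of the mitotic list. Among the decreases it was called for Cpq at -1.22 ± 0.17 and Btg1 at -1.13 ± 0.19 (adjusted p = 0.00357 and 0.0111). For the remaining 242 of the 311 probe sets the lines were not shown to differ.

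**Figure D5:**
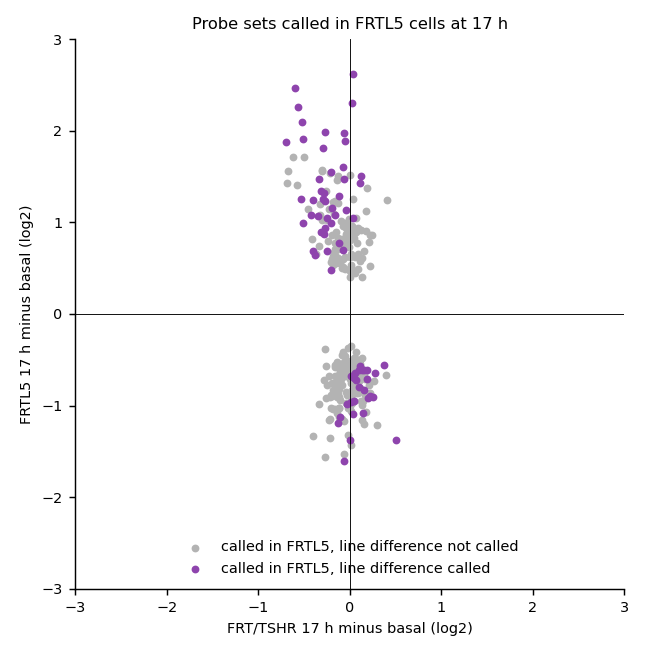
Difference between 17 h of TSH and basal (log2) in FRTL5 cells (vertical) and in FRT/TSHR cells (horizontal) for the 311 probe sets called in FRTL5, on equal scales. Purple points are the 69 whose line difference was called. The FRT/TSHR medians lie near 0, at -0.09 for the sets that rose in FRTL5 and 0.01 for those that fell. Some genes lie further from it, such as Acat2 (-0.57) and Tcp11l2 (0.51).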

How the data were processed

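The authors deposited 1 table of log2 expression values for 18 arrays, which per the submitters' processing notes were made with RMA (version and settings are not given in the sources used here). Values ran from 2.61 to 13.58. That the scale is log2 follows from this range. Probe sets were named from the platform annotation, with 1 symbol for 7006, several for 308 (not named) and none for 1426, and 6985 were matched to the GRCr8 gene table. Of 4736 genes, 1565 had several probe sets.

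With limma 3.58.1 in R 4.3.3, all 18 arrays entered 1 linear model with a mean for each of 6 groups (12 residual and 3.6 prior degrees of freedom), with two-sided tests and Benjamini-Hochberg adjustment over 8740 probe sets. No filter on low signal was used. Errors of differences are limma SE. Precision is limited by the number of arrays. The labels number the replicates, and the numbers were taken as pairs. Deviations from the group means correlated at 0.69, 0.39 and 0.41 between 17 h and basal arrays numbered 1, 2 and 3. The 17 h array numbered 3 correlated at 0.42 with basal array 2, and 17 h array 2 at 0.30 with basal array 3. Deviations within a group cancel out, so the arrays numbered 1, which stood apart, can alone make the others correlate. These values therefore do not show that the arrays numbered 2 and 3 are pairs, and the block results rest on that assumption. The block added the number within each line. Named genes were the 15 largest called changes each way without overlap, up to 4 called members of each of 34 gene lists by smallest p, and a few set genes. Some lists were symbol patterns (Eif, Nduf, Psm). The genes, lists and tests were chosen with earlier results of these data known. The fit was tested on simulated data with independent noise on each array. These lacked the shared offset of the FRTL5 arrays numbered 1, so they do not show how the fit handles it. Promoters came from RefSeq, with 3879 of the 4736 genes matched.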

Additional observations from a re-analysis of the deposited data

Results flagged for a closer look

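For 24 of the named genes the 17 h effect differed between the lines by the test of the difference itself (FRTL5 effect minus FRT/TSHR effect, log2, at an adjusted p under 0.05 in limma over 8740 probe sets). Without any 1 of 12 arrays 12 of these kept the call, and all 24 passed with the replicate block. Line, dose, medium and the 5 days in TSH-free medium given for FRTL5 alone cannot be told apart.

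The 12 that kept it were Slc5a5 (2.58), Fdps (2.27), Acat2 (2.83), Cyp51 (2.28), Kcnj15 (1.69), Hsd17b7 (1.50), Mthfd1 (1.29), Tyms (1.21), Cpq (-1.22), Btg1 (-1.13), Dbp (-0.97) and Spint2 (-0.69), with adjusted p of 0.000298 to 0.0189.

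The other 12 lost it in 4 to 11 of the 12 fits. For Rrbp1 the difference was 1.54 (adjusted p = 0.0578 without the FRT/TSHR 17 h array numbered 2), for Tubb5 1.81 (0.0633 without the FRTL5 17 h array numbered 2), for Gpx2 1.35 (0.074 without the FRT/TSHR 17 h array numbered 1) and for Prim1 1.42 (0.0658 without the FRT/TSHR basal array numbered 1). For Ech1 it was -1.38 (0.074 without the FRT/TSHR 17 h array numbered 1), for Dnmt1 1.65 (0.0808 without the FRT/TSHR basal array numbered 1), for Cdk1 1.79 (0.0887 without the FRT/TSHR 17 h array numbered 1) and for Tcp11l2 -1.88 (0.111 without the FRT/TSHR basal array numbered 1). For Top2a it was 1.50 (0.113 without the FRT/TSHR basal array numbered 1), for RT1-CE12 -0.69 (0.125 without the FRT/TSHR basal array numbered 1), for Kcnk1 0.77 (0.123 without the FRT/TSHR basal array numbered 1) and for Mvd 1.66 (0.118 without the FRTL5 17 h array numbered 2).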

How the results depend on the processing

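The 311 called probe sets of FRTL5 17 h against basal became 867 with the replicate block, 591 with the block and only the 6 arrays compared, 96 with those 6 arrays and no block, 193 with the 9 FRTL5 arrays, 600 with array weights and 91 with a log2 difference of at least 1 as well. They were 152 to 253 without 1 array, and 239 (59.4% higher, against 46% of the 311) without all FRTL5 arrays numbered 1, of which 172 were shared. The line difference, 69 probe sets, became 365 with the replicate block, 210 with array weights, 34 to 68 without 1 FRTL5 array and, chosen after seeing the data, 33 to 83 without 1 FRT/TSHR array. FRTL5 at 30 min, 21 probe sets, became 40 with the replicate block, 13 with the 9 FRTL5 arrays and 48 with array weights. Scaling, quantile normalization, a dim filter, a variance trend and a robust prior kept each count within 1.5 times, and FRT/TSHR at 17 h had 0 called under each of them. Of 92 called named genes 38 kept the call without any 1 FRTL5 array, 92 with the block, 33 with only 6 arrays and 58 without the arrays numbered 1. Of 1648 gene values under these settings 1639 kept their direction. The 9 that reversed belonged to genes that were not called: Nkx2-1 was 0.044 with array weights and -0.63 to 0.53 without 1 array, and Foxe1 was 0.13 without all FRTL5 arrays numbered 1, 0.10 with array weights and -0.34 to 0.40 without 1 array. The causes were not tested. RMA itself could not be varied, and 3 arrays a group limit what can be called.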
